A study of Mus musculus with 6 samples.

Results

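The genes described here encode the proteins that capture free hemoglobin and heme and break heme down. They are haptoglobin (Hp), hemopexin (Hpx), the receptors Cd163 and Lrp1, the heme oxygenases Hmox1 and Hmox2, the biliverdin reductases Blvra and Blvrb, and the repressor Bach1. The 9 genes were taken by name from a table of 22487 rat genes. Each name matched a single row, and all 9 passed the filter on low values, a mean of at least 0.5 FPKM (a level corrected for transcript length and library size) that left 15303 genes for testing. Expression was measured by RNA sequencing of ovarian tissue from adult female rats labelled wild type, in 3 control libraries with no treatment and 3 libraries after exposure to PM2.5, fine airborne particles, from a cowshed. Values given per library follow the order of libraries 1, 2 and 3. The titles add 30 days, with no event from which they run. The labels leave out the strain, the dose and route of exposure, the stage of the estrous cycle and whether each library came from its own animal, so the errors and tests measure the spread between these libraries. The labels give the organism as mouse, whereas the titles and all gene identifiers are rat, and the samples are treated as rat.

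Hemoglobin released from red cells is bound in plasma by haptoglobin, and the complex is taken up by macrophages through CD163. Heme that has left hemoglobin is bound by hemopexin and taken up through LRP1. Inside the cell, heme oxygenase opens the heme ring and releases iron, carbon monoxide and biliverdin, which biliverdin reductase turns into bilirubin. BACH1 represses the gene of heme oxygenase 1 until heme binds to BACH1. Haptoglobin is best known as a product of the liver and rises there during inflammation, and the ovary also transcribes its gene. Heme oxygenase 1 is induced by heme and by oxidative stress, while heme oxygenase 2 is made continuously in most tissues.

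The total count was between 47662338 and 60749578 per library. The groups overlapped in the summed levels of the luteal, granulosa, theca, oocyte and macrophage marker lists. Defining genes of the ovary were present in all 6 libraries. Inha, the inhibin alpha subunit of granulosa cells, had 886 to 6152 CPM (counts scaled by library total and TMM factor) and Cyp11a1, the side-chain cleavage enzyme of steroid-making cells, had 2004 to 6988 CPM. The libraries of a group differed in their content of follicle and luteal genes. The granulosa list summed to 2266, 2131 and 547 FPKM in the controls and to 1035, 2733 and 3275 FPKM in the PM2.5 libraries, and the luteal list to between 4227 and 11393 FPKM. In tissue of mixed cells, a change in the number of cells of a type cannot be told apart from a change in RNA per cell.

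The set was chosen by the count differences of Hp and Hmox1 between the groups, known from earlier results of these data, and by the known roles of the other 7 genes. For Hp and Hmox1 the differences are therefore given as a description without a test. In the PM2.5 libraries the Hp transcript was about 12.0-fold higher and the Hmox1 transcript about 2.27-fold lower, while the other 7 genes did not pass the test. Of 15303 genes, 142 passed at an adjusted p below 0.05 with edgeR's quasi-likelihood test, or 0.928% (0.19% higher and 0.738% lower). Hp and Hmox1 were the 2 of 9 members among them, which follows from how the set was chosen. The groups did not overlap in 3 of the 9 members, Hp, Hmox1 and Lrp1, against 27.2% of all genes tested (12.1% higher and 15.2% lower). For Hp and Hmox1 this too follows from how the set was chosen, and among the other 7 genes Lrp1 alone was apart. The median log2 fold change of the 9 members was 0.05, and that of all genes tested was 0.00. The count of 2 members fell to 0 when any single library other than PM2.5 library 3 was left out, and to 1, Hp, without PM2.5 library 3. With DESeq2, which called 11.5% of all genes tested, it was 3, the third being Lrp1.

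**Figure D1:**
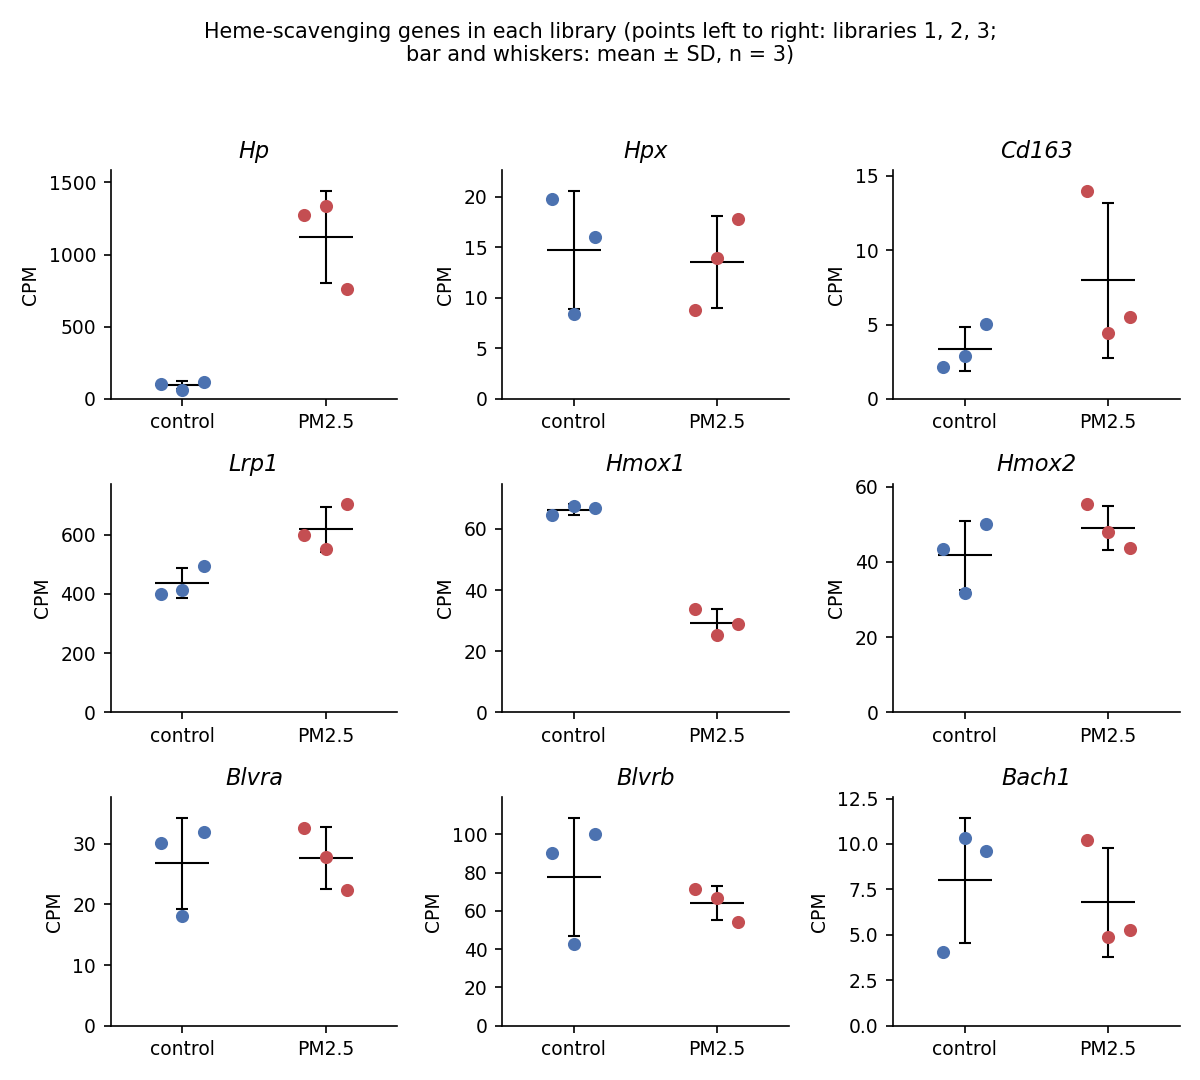
CPM of each of the 9 genes in the 3 control libraries (blue) and the 3 PM2.5 libraries (red), with the mean and SD of each group in black and every axis starting at 0. The groups are apart for Hp, Lrp1 and Hmox1 and overlap for the other 6 genes.

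Hp had 104, 61.8 and 115 CPM in the controls and 1276, 1334 and 759 CPM after exposure. The lowest PM2.5 library was far above the highest control, and PM2.5 library 3 stood below the other PM2.5 libraries. The means were 93.8 ± 28.3 and 1123 ± 317 CPM (SD, n = 3 in each group), a log2 fold change of 3.58 ± 0.34 (SE). Behind these values were 3160 to 5719 counts in the controls and 37662 to 81001 counts in the PM2.5 libraries. By FPKM, which corrects for transcript length, Hp was at place 2380, 4103 and 2141 among all genes in the controls and at place 117, 116 and 224 in the PM2.5 libraries. It thus moved from the level of an ordinary expressed gene to that of the most abundant genes.

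Hp lies on the minus strand of chromosome 19 from 37539627 to 37544523, as the deposited table gives it. The build behind these coordinates is not given in the sources used. An unnamed gene on the opposite strand overlaps its end by 333 bases and had at most 3 counts in any library. The 4 tested neighbours within 100000 bases had log2 fold changes from -0.99 to 0.21, none near that of Hp. Txnl4b, whose product belongs to a family of splicing proteins and which lies 1106 bases from Hp, had 16.9 ± 2.34 CPM in the controls and 12.9 ± 2.39 CPM in PM2.5 (edgeR adjusted p = 0.374). Dhx38, a splicing helicase beyond Txnl4b, had 57.7 ± 5.24 and 66.8 ± 6.39 CPM (edgeR adjusted p = 0.421). Dhodh, the pyrimidine synthesis enzyme 13654 bases from Hp, fell from 46.3 ± 6.47 to 23.3 ± 1.14 CPM, opposite to Hp, and edgeR's adjusted p was 0.0499. That call was lost with median-of-ratios scaling (edgeR adjusted p = 0.0524) and with each library left out (edgeR adjusted p from 0.0706 to 0.249), and DESeq2 gave an adjusted p of 1.66e-05. Dhodh was chosen for mention after its values were seen.

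Hpx, whose product hemopexin binds free heme, had 19.8, 8.37 and 16.01 CPM in the controls and 8.77, 13.9 and 17.8 CPM after exposure. The groups covered nearly the same range, and control 2 and PM2.5 library 1 were the low ones. The log2 fold change was -0.12 ± 0.40 (95% interval -1.06 to 0.81), and edgeR's adjusted p was 0.884. The interval holds a level as low as 2-fold under the controls, and it does not hold a difference of the size seen in Hp. Per length, Hp stood 2.42, 3.40 and 3.32 times above Hpx in the controls and 66.9, 44.1 and 19.6 times above it in the PM2.5 libraries. The transcripts of the scavenger of hemoglobin and that of heme were within a few fold of each other in the controls and far apart after exposure. These ratios rest on the same Hp values, by which the set was chosen, and carry no test of their own.

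Cd163, the macrophage receptor for the haptoglobin-hemoglobin complex, was the least abundant member. It had 2.17, 2.86 and 5.03 CPM in the controls and 13.98, 4.46 and 5.52 CPM after exposure. Only PM2.5 library 1 stood clearly above the rest, and PM2.5 library 2 was below control 3. The log2 fold change was 1.25 ± 0.56 (95% interval -0.07 to 2.57, edgeR adjusted p = 0.258), and without PM2.5 library 1 it was 0.58 (edgeR adjusted p = 0.513, the highest of a range from 0.15 over the alternatives run). PM2.5 library 1 also had the highest summed level of 11 macrophage markers, 137 FPKM, against 81.9 to 97.2 FPKM in the controls and 73.7 and 82.9 FPKM in PM2.5 libraries 2 and 3. None of the 9 macrophage markers tested passed with edgeR or DESeq2, or at an unadjusted p below 0.05 (20.9% of all genes). By the sign of the log2 fold change, as in the lists below, 4 of these 9 lay above and 5 below the controls. Their median log2 difference was 0.00. C1qb and C1qc, chains of complement C1q, had log2 fold changes of 0.41 ± 0.37 and 0.18 ± 0.31. None of the 11 was at 0 in all libraries. The part of macrophage content in the Cd163 values was not tested.

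Lrp1, which encodes a large endocytic receptor that takes up the hemopexin-heme complex among many other ligands, had 399, 415 and 495 CPM in the controls. It had 599, 553 and 702 CPM after exposure, so every PM2.5 library was above every control. The means were 436 ± 51.5 and 618 ± 76.5 CPM (SD, n = 3), a log2 fold change of 0.50 ± 0.17 with a 95% interval of 0.10 to 0.91. edgeR's adjusted p was 0.171, so the difference did not pass over all genes, while DESeq2 gave an adjusted p of 0.0423, the lowest of a range up to 0.376 over the alternatives run. Lrp1 exceeded Cd163 per length in every library, from 13.9 times in PM2.5 library 1 to 59.8 times in control 1.

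**Figure D2:**
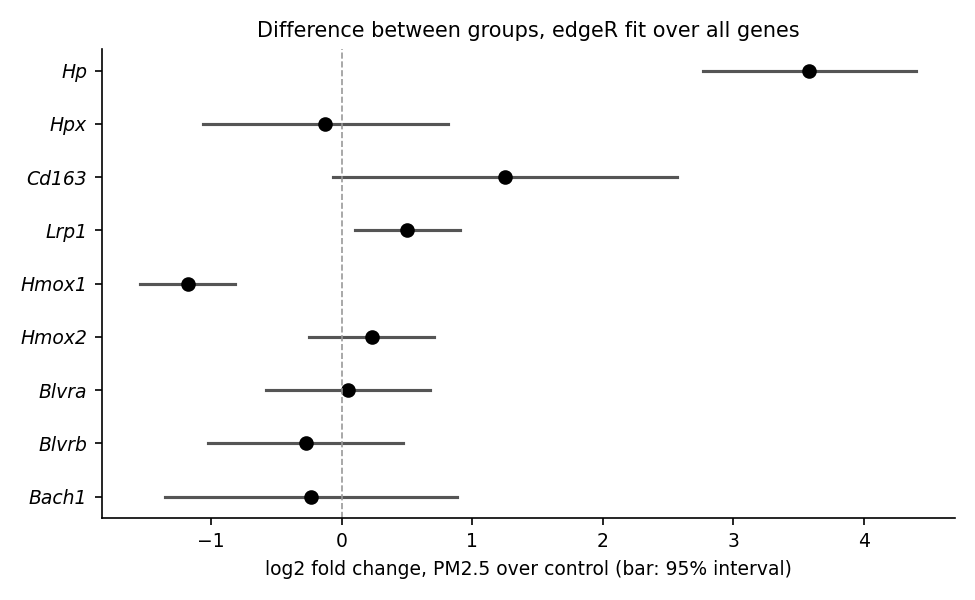
Log2 fold change of PM2.5 over control for each gene (point) with its 95% interval (line), from the edgeR fit over 15303 genes. Hp lies at 3.58 and Hmox1 at -1.18, and the intervals of Hpx, Cd163, Hmox2, Blvra, Blvrb and Bach1 include 0.

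Hmox1, the inducible heme oxygenase, had 64.5, 67.6 and 67.0 CPM in the controls and 33.9, 25.2 and 28.8 CPM after exposure. The controls were nearly identical and all PM2.5 libraries lay far below them. The means were 66.4 ± 1.65 and 29.3 ± 4.37 CPM (SD, n = 3), a log2 fold change of -1.18 ± 0.15. Hmox2, the continuously made form, had 43.5, 31.8 and 50.0 CPM in the controls and 55.3, 48.0 and 43.6 CPM after exposure. Its groups overlapped, with a log2 fold change of 0.23 ± 0.20 (95% interval -0.25 to 0.71, edgeR adjusted p = 0.545).

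The balance between the heme oxygenases differed between the groups. Per length, Hmox1 made up 69.4, 76.5 and 67.2% of the summed heme oxygenase FPKM in the controls and 48.4, 44.5 and 50.3% in the PM2.5 libraries. The sum itself was 54.1 ± 1.19 FPKM in the controls and 35.6 ± 4.40 FPKM in PM2.5 (SD, n = 3), and the groups did not overlap. These shares rest on the same Hmox1 values and carry no test of their own. Hmox1 lies on the plus strand of chromosome 19 from 13467244 to 13474079. Of its tested neighbours within 100000 bases, Mcm5, a subunit of the replicative helicase, had a log2 fold change of 0.68 ± 0.57, Tom1, an endosomal adaptor, had -0.56 ± 0.25 and Hmgxb4 had 0.14 ± 0.20, and none of the 3 passed (edgeR adjusted p from 0.262 to 0.726).

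**Figure D3:**
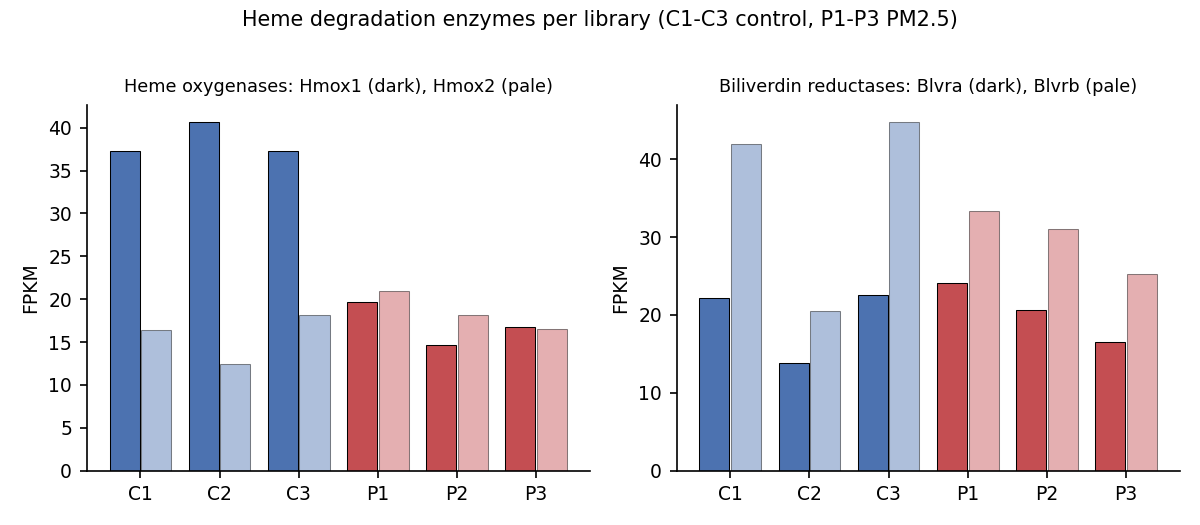
FPKM of Hmox1 (dark) and Hmox2 (pale) on the left and of Blvra (dark) and Blvrb (pale) on the right, in controls C1 to C3 (blue) and PM2.5 libraries P1 to P3 (red), 1 bar per library. Hmox1 exceeds Hmox2 in every control and lies close to it in the PM2.5 libraries, and Blvrb exceeds Blvra in all 6.

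The next enzymes of the pathway did not pass the test. Blvra, the reductase of the main adult form of biliverdin, had 30.2, 18.2 and 32.0 CPM in the controls and 32.7, 27.9 and 22.4 CPM after exposure. Its log2 fold change was 0.05 ± 0.26 (95% interval -0.58 to 0.67, edgeR adjusted p = 0.939). Blvrb, which also reduces flavins, had 90.3, 42.6 and 100 CPM in the controls and 71.7, 66.8 and 54.2 CPM after exposure, with a log2 fold change of -0.28 ± 0.32 (95% interval -1.02 to 0.47, edgeR adjusted p = 0.652). Control 2 was the lowest library for both reductases, and also for Hp, Hpx and Hmox2. Blvrb exceeded Blvra per length by 1.38 to 1.98 times over the 6 libraries. The Sertad3 gene lies on the same strand inside the bounds of Blvrb over 5853 bases and had 12.2 to 31.5 CPM, so some reads could belong to either gene.

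Bach1, the heme-sensing repressor of Hmox1, had 4.04, 10.3 and 9.61 CPM in the controls and 10.2, 4.88 and 5.26 CPM after exposure. High and low libraries occurred in both groups. The log2 fold change was -0.23 ± 0.47 (95% interval -1.35 to 0.88, edgeR adjusted p = 0.808), an interval wide enough to hold a 2-fold change in the negative direction. The transcript level does not measure the amount or the heme loading of the BACH1 protein.

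By mean FPKM the order in the controls was Hmox1 (38.4), Blvrb (35.7), Lrp1 (26.4), Hp (24.7), Blvra (19.6), Hmox2 (15.7), Hpx (8.45), Bach1 (2.21) and Cd163 (0.62). Hmox1 and Blvrb overlapped in their control ranges, as did Blvrb with Lrp1, Lrp1 with Hp, Hp with Blvra and Blvra with Hmox2. Hmox2 and Hpx, Hpx and Bach1, and Bach1 and Cd163 did not overlap there. In the PM2.5 libraries Hp came first at 299 FPKM, with no overlap with Lrp1 (37.6) in second place. Lrp1 and Blvrb (29.9) were just apart, and Blvrb did not overlap with Blvra (20.4). Blvra overlapped with Hmox2 (18.6) and Hmox2 with Hmox1 (17.0), followed by Hpx (7.83), Bach1 (1.88) and Cd163 (1.497), of which Bach1 and Cd163 overlapped. Hmox1 thus went from the first to the sixth place and Hp from the fourth to the first, while Hpx, Bach1 and Cd163 kept the lowest places in both groups. The moves of Hp and Hmox1 follow from how the set was chosen.

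Transcripts of other cells that can carry Hp or hemoglobin were set beside these values. Hba-a1, an alpha globin, had 616, 450 and 452 CPM in the controls and 1637, 2314 and 2582 CPM after exposure, and Hbb, a beta globin, had 89.4 to 205 CPM in the controls and 911 to 1522 CPM in PM2.5. Alas2, which starts heme synthesis in developing red cells, had 1.57 to 4.07 CPM in the controls and 13.98 to 19.0 CPM in PM2.5. Hba-a3, another alpha globin gene, had 332, 127 and 144 CPM in the controls and 172, 141 and 235 CPM after exposure, so its groups overlapped (log2 fold change -0.14 ± 0.40, edgeR adjusted p = 0.871). Ahsp, a chaperone of alpha globin, had a log2 fold change of 0.27 ± 0.45 and Klf1, an erythroid transcription factor, had -1.13 ± 0.53, and neither passed. Of 6 erythroid markers tested, 4 were above and 2 below the controls. Hba-a1, Hbb and Alas2, 3 of the 6, passed with both edgeR (0.928% of all genes) and DESeq2 (11.5% of all genes). The edgeR calls of these 3 were lost with each library left out (edgeR adjusted p from 0.0706 to 0.236). The 10 erythroid markers summed to 417 to 763 FPKM in the controls and 1036 to 1571 FPKM in PM2.5.

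The 8 adipocyte markers summed to 29.4 to 43.4 FPKM in the controls and to 76.2, 79.5 and 48.4 FPKM in the PM2.5 libraries. Adipoq, which encodes the fat hormone adiponectin, had 33.3, 33.8 and 2.60 CPM after exposure and 0.929 to 1.945 CPM in the controls. Fat tissue also makes haptoglobin. Lipe, the hormone-sensitive lipase, which steroid-making cells also express, had 63.8, 79.1 and 139 CPM in the controls and 142.5, 84.1 and 73.5 CPM after exposure, so its groups overlapped. Cfd, the complement protease adipsin, had 11.3, 16.4 and 7.90 CPM in the controls and 17.9, 28.3 and 24.8 CPM after exposure (log2 fold change 1.00 ± 0.32, edgeR adjusted p = 0.16). None of the 6 adipocyte markers tested passed with edgeR (3 at an unadjusted p below 0.05, beside 20.9% of all genes, and 2 with DESeq2, beside 11.5%), with 5 above and 1 below the controls, and no marker of this list was at 0 in all libraries.

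The 9 neutrophil markers summed to 2.40 to 3.94 FPKM in the controls and 4.62 to 9.22 FPKM in PM2.5. Of these markers 3 were tested, all 3 above the controls by the sign of the log2 fold change. Only S100a8 had each PM2.5 library above all controls. Ltf had 1.02, 0.372 and 1.05 CPM in the controls and 3.15, 6.80 and 0.121 CPM after exposure. None of the 3 passed with edgeR or DESeq2, or at an unadjusted p below 0.05 (20.9% of all genes). S100a9 and S100a8, the calprotectin subunits, had log2 fold changes of 0.86 ± 0.44 and 1.76 ± 1.04, both at no more than 3.32 CPM in any library. The neutrophil granule gene Camp was at 0 in all controls and in PM2.5 library 1. The 8 hepatocyte markers summed to 14.01 to 30.8 FPKM in the controls and 17.2 to 27.4 FPKM in PM2.5. Of 5 tested, 2 were above and 3 below the controls, and none passed with edgeR or DESeq2. An unadjusted p below 0.05 was found for 1 of the 5, beside 20.9% of all genes. Apoa1, an apolipoprotein of high-density lipoprotein, had 20.8, 12.0 and 39.2 CPM in the controls and 3.32, 12.4 and 11.5 CPM after exposure. Serpina1, which encodes alpha-1-antitrypsin, had 2.32, 0 and 0 CPM in the controls and 50.9, 22.8 and 2.74 CPM after exposure (log2 fold change 5.04 ± 1.92, edgeR adjusted p = 0.207). Apoa1 overlapped between the groups, and for Serpina1 the lowest PM2.5 library was just above the highest control. Alb, which encodes albumin, the main product of the liver, had 0 to 5.30 CPM in the controls and 0.38, 1.78 and 13.7 CPM after exposure. The part of blood, fat tissue, neutrophils and liver cells in the Hp difference was not tested.

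**Figure D4:**
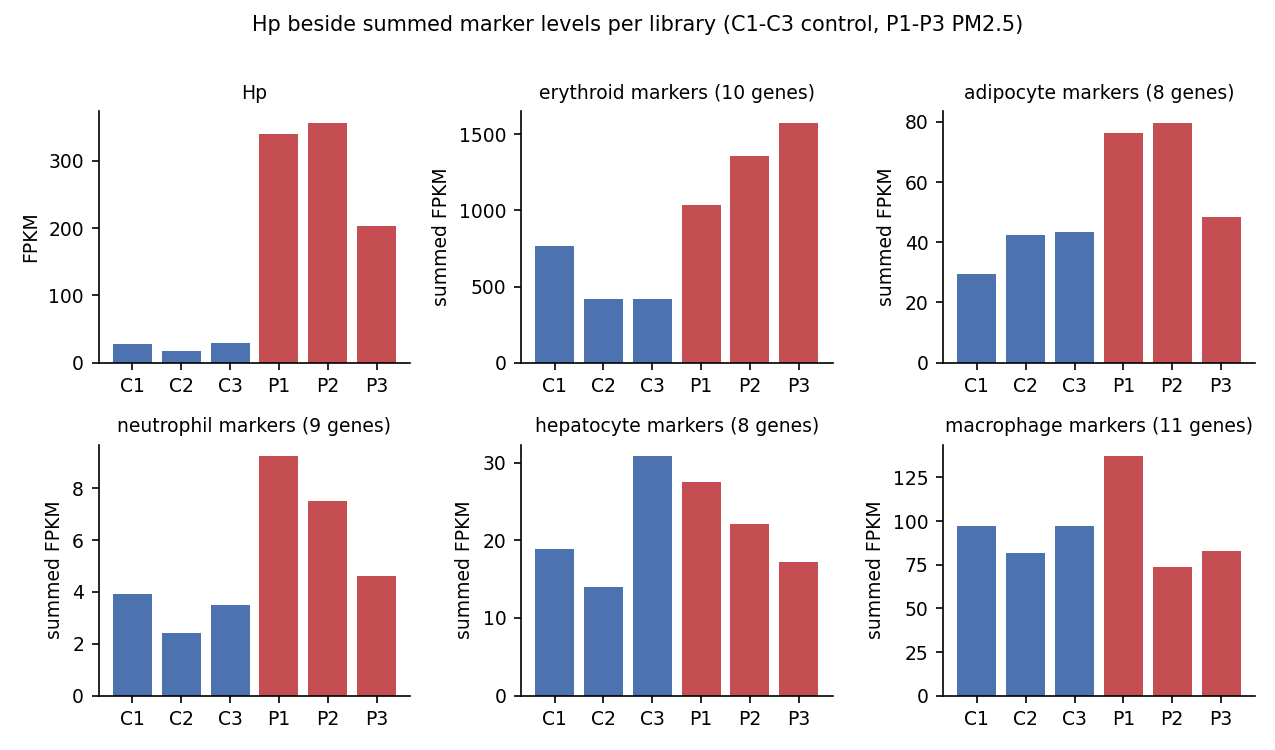
FPKM of Hp and summed FPKM of 5 marker lists in controls C1 to C3 (blue) and PM2.5 libraries P1 to P3 (red), 1 bar per library and every axis starting at 0. The erythroid, adipocyte and neutrophil sums have each PM2.5 library above all controls, and the hepatocyte and macrophage sums overlap.

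The wider pathway was read from 5 lists with 77 genes, of which 65 were tested. None of the 65 passed edgeR's quasi-likelihood test over all genes, 16 had an unadjusted p below 0.05, beside 20.9% of all genes tested, and DESeq2 called 9, 4 higher and 5 lower, beside 11.5% of all genes (4.78% higher and 6.77% lower). The median log2 fold change over the 65 genes was 0.21, with 42 above and 23 below the controls, beside 0.00 for all genes tested. The groups did not overlap in 20 of the 65, 12 higher and 8 lower, beside 27.2% of all genes (12.1% higher and 15.2% lower).

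Among 19 tested genes of heme and iron handling, 12 were above and 7 below the controls, with a median of 0.27. Cp, which encodes the copper-carrying ferroxidase ceruloplasmin, had 31.9, 44.1 and 22.3 CPM in the controls and 102, 97.2 and 59.3 CPM after exposure. Its log2 fold change of 1.40 ± 0.31 did not pass (edgeR adjusted p = 0.0892), and DESeq2 called it. As with Hp, PM2.5 library 3 was the lowest of its group. Fth1, the ferritin heavy chain that oxidizes and stores iron, had 1511 to 2350 CPM in the controls and 2516 to 3982 CPM in PM2.5, and Ftl1, the ferritin light chain, had 829 to 1006 and 683 to 815 CPM. The ferritin chains were therefore apart between the groups in opposite directions, and neither passed (edgeR adjusted p = 0.171 and 0.281), while DESeq2 called Fth1 (adjusted p = 0.0323). Tfrc, the transferrin receptor that brings iron into the cell, had a log2 fold change of 0.62 ± 0.22, and Slc40a1, the iron exporter ferroportin, had -0.50 ± 0.21. Por, which supplies electrons to heme oxygenase, had 172, 372 and 154 CPM in the controls and 112, 157 and 147 CPM after exposure. Its groups overlapped, with a log2 fold change of -0.74 ± 0.35 (edgeR adjusted p = 0.283).

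Of the genes tied to BACH1 and to NRF2, the activator that competes with it, 12 were tested, 6 above and 6 below the controls, with a median of 0.03. These pathways share the antioxidant response element through which Hmox1 is regulated. Mafg, a small MAF partner of both factors, had 142, 142 and 222 CPM in the controls and 107, 88.7 and 96.5 CPM after exposure (log2 fold change -0.79 ± 0.21, edgeR adjusted p = 0.121), and DESeq2 called it. Keap1, which holds NRF2 inactive, had -0.39 ± 0.20, and Nfe2l2, the gene of NRF2, had 0.20 ± 0.25. The list as a whole was evenly divided.

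Haptoglobin belongs to the acute phase genes, which the liver transcribes in inflammation. Of 18 such genes, 11 were tested, 8 above and 3 below the controls, with a median of 0.70. None passed with edgeR. An unadjusted p below 0.05 was found for 3 of the 11 (20.9% over all genes), and DESeq2 called 2, Orm1 and Saa4 (11.5% over all genes). Orm1, which encodes the acute phase protein orosomucoid, had 1.57, 0.352 and 3.25 CPM in the controls and 255, 76.6 and 4.19 CPM after exposure (log2 fold change 6.02 ± 1.53, edgeR adjusted p = 0.114). Lcn2, an iron-siderophore binding protein, had 11.1 to 57.1 CPM in the controls and 132, 428 and 31.0 CPM after exposure. PM2.5 library 3 was close to or within the control range for both, whereas for Hp it was far above it. Saa4, which encodes a constitutive serum amyloid A, lay in the opposite direction, with 28.8 ± 4.86 CPM in the controls and 14.4 ± 0.966 CPM in PM2.5 (edgeR adjusted p = 0.0684). C3, the central complement protein, had a log2 fold change of 0.81 ± 0.34 (edgeR adjusted p = 0.239).

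In the liver, interleukin-6 acting through STAT3, the C/EBP factors and glucocorticoids drive the Hp gene. Of 13 tested genes of these routes, 9 were above and 4 below the controls, with a median of 0.26. Cebpb, the C/EBP factor of the acute phase response, had 323, 491 and 648 CPM in the controls and 253, 212 and 175 CPM after exposure. Every PM2.5 library was below every control for Cebpb, with a log2 fold change of -1.19 ± 0.28 that did not pass (edgeR adjusted p = 0.101), and DESeq2 called it. Il6r, the interleukin-6 receptor, had 0.68 ± 0.25, and Jak1, a kinase bound to the signalling chain of that receptor, had 0.53 ± 0.19 (edgeR adjusted p = 0.197 and 0.194).

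The list of LRP1 relatives, its chaperone and its ligands had 10 tested genes, 7 above and 3 below the controls, with a median of 0.36. Lrp8, a receptor for reelin and apolipoprotein E, had a log2 fold change of 0.97 ± 0.32 (edgeR adjusted p = 0.164), and DESeq2 called it. Its control range, 18.7 to 41.7 CPM, lay below its PM2.5 range, 51.1 to 75.5 CPM.

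**Figure D5:**
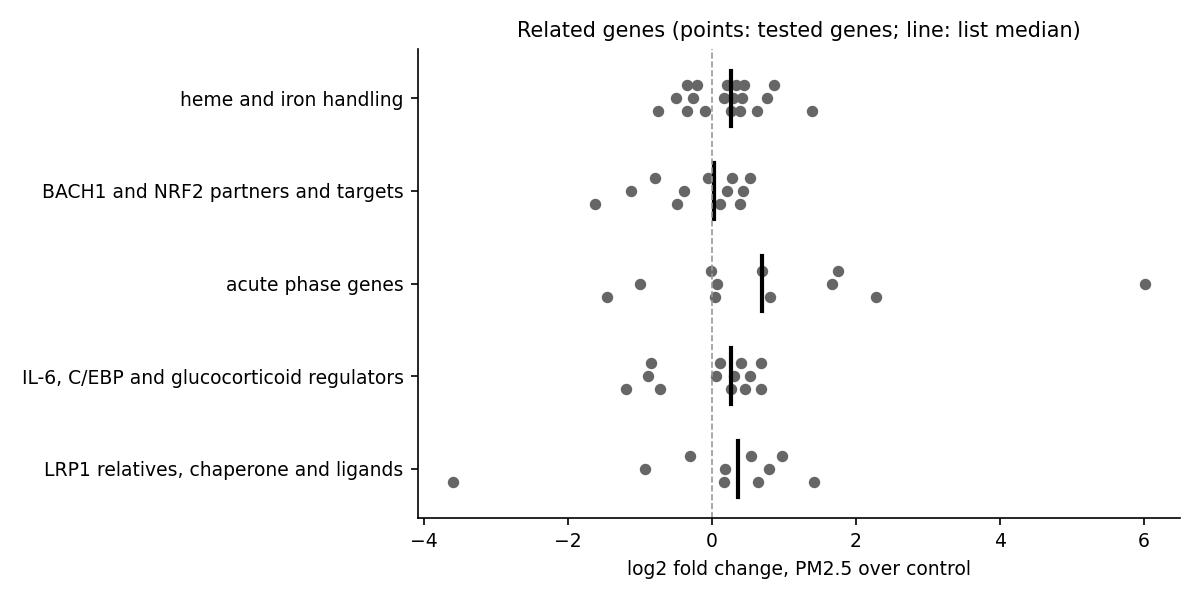
Log2 fold change of PM2.5 over control for the tested genes of 5 related lists (points, spread vertically for legibility) with each list's median (black line). The medians run from 0.03 for the BACH1 and NRF2 list to 0.70 for the acute phase list, with Orm1 at 6.02 as the point farthest to the right.

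Among named genes averaging 1 FPKM or more, those whose log2 CPM followed Hp most closely over the 6 libraries were Arfgef1 (Pearson r = 0.995), Ccdc92b (0.993), Cobll1 (0.992), Entpd4 (0.989) and Rnf8 (0.988). Arfgef1 encodes an activator of ARF proteins in vesicle traffic, Entpd4 a nucleotidase of the Golgi and Rnf8 a ubiquitin ligase of the DNA damage response. Their differences were much smaller than that of Hp, with Arfgef1 at 86.6 ± 3.54 and 184 ± 14.8 CPM and Cobll1 at 27.1 ± 1.42 and 33.8 ± 0.57 CPM. For Hmox1 they were Pura (0.998), Mepce (0.997), Fhl3 (0.996), Srek1ip1-ps1 (0.996) and Thap6 (0.995). Mepce, which caps the small nuclear RNA 7SK, had 56.4 ± 2.61 and 20.4 ± 5.23 CPM, and Pura, a single-stranded nucleic acid binding protein, had 110 ± 3.27 and 62.0 ± 5.68 CPM. The likeness rests on 6 libraries that fall into 2 groups, so it mostly restates that a gene differed between them.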

How the data were processed

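The count columns of the table, deposited by the authors, hold whole numbers for each gene in each library. Its FPKM columns were normalised by the authors for length and library total, per the file headers. The submitters' processing notes list HISAT2 2.2.1, cutadapt 1.9, StringTie 2.1.6, edgeR and DESeq2 and give no step for any of them. No source used here states the genome build, the annotation release or the strand setting.

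Genes averaging at least 0.5 FPKM were tested with edgeR 4.0.16 in R 4.3.3 (TMM factors, glmQLFit, glmQLFTest, two-sided) for PM2.5 over control, adjusted by Benjamini-Hochberg over all 15303 genes at 0.05. The SE is the log2 fold change divided by the square root of F, and 95% intervals use the fit's degrees of freedom. CPM uses TMM factors, and likeness adds a prior count of 2. Counts were simulated for 15303 genes with the spread per gene that edgeR estimated from these libraries. At each fold 50 genes averaging at least 1 FPKM were changed, and all other genes were set to no difference. There edgeR recovered 10% of genes changed 2-fold, 74% changed 4-fold, 88% changed 8-fold and 96% changed 16-fold. These rates hold for those settings and were not measured on the real counts. Libraries of a group differed by chi-square values per degree of freedom of 135 or more, so none repeats another. DESeq2 1.42.0 and limma 3.58.1 served as alternatives, with other scalings and filters, robust estimation, a replicate block and each library left out.

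The members and lists were chosen with earlier results of these data known. The genes named are the 9 members, in each related list the members that passed or otherwise the 3 with the smallest p, the 5 genes most like Hp and Hmox1, and the 2 most abundant members of each marker list. Neighbours of Hp and Hmox1 and some others were chosen after their values were seen. Among the others were Hbb, Alas2, Ahsp, Klf1, Adipoq, Plin1, Ltf, Camp, Alb, Ftl1, Slc40a1, Por, Nfe2l2 and Lcn2. No sequence of the rat was used here. Some genes that the rule names are left out of the text.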

Additional observations from a re-analysis of the deposited data

How the results depend on the processing

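The set was chosen by the differences of Hp and Hmox1, so the counts of members below are a description and not a test. The number of members that passed was 2, Hp and Hmox1. It was 1 (Hp) without a filter, 0 with the replicate block and 0 to 1 with a library left out, where fewer samples entered the test, and 2 or 3 under the other 9 alternatives. The log2 fold change of Hp stayed between 3.36 and 3.80 and that of Hmox1 between -1.30 and -1.08 over the 17 alternatives run. Over these alternatives 153 values for the 9 members included no turn of a called direction, 14 lost a call, 1 gained one (Lrp1 with DESeq2), and 4 uncalled values changed sign, for Hpx and Blvra with a library left out. Of 1086 values for 64 other named genes, 91 lost a call, 16 gained one and no called direction turned.

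Of all genes, 142 passed. The number was 1767 with DESeq2 (731 higher and 1036 lower), 87 with filterByExpr, 8 with all genes kept, 1 with the replicate block and 0 to 7 with a library left out. Apart from the smaller number of samples in the last, the cause was not tested. Of the related genes 0 passed, 9 with DESeq2 and 1 with limma on log2(FPKM + 0.1). The labels do not say that same-numbered libraries were paired. Their deviations from the group means correlated at -0.30, 0.13 and -0.05, and those of differently numbered libraries at -0.25 to 0.24. With so few libraries these values cannot decide whether same-numbered libraries were paired. Cd163 and Bach1, with the fewest counts, had the widest intervals among the members.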
